A study of Mus musculus with 2 samples.

Results

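Endothelial activation and leukocyte adhesion genes were followed in single cells of epididymal adipose tissue. The set held 10 genes of the 27998 listed in the count tables: the selectins Selp and Sele, the immunoglobulin-family adhesion molecules Icam1, Icam2, Vcam1 and Pecam1, Vwf, Ackr1, Lrg1 and the selectin ligand gene Selplg. They were taken by name for their role. The stromal vascular fraction, the cells left once adipocytes are removed, came from epididymal white adipose tissue of male C57BL/6 mice (C57BL/6J in the study's methods). Mice were fed a low-fat diet (LFD) or a high-fat diet (HFD) from 6 wk of age for 24 wk, and each diet gave 1 library made with 10x Chromium 3' v3 chemistry. The diet of each library is that of its own sample characteristics; the treatment text, which is the same for both samples, names the low-fat diet in each case. The number of mice behind a library was not found in the sources used here. The LFD library had 1113 barcodes and 7356278 UMIs (molecules counted once by their molecular identifier), and the HFD library had 1144 barcodes and 8412325 UMIs. No barcode was shared between the libraries. With 1 library per diet there is no replicate check, so no test was run, and all intervals below are exact 95% intervals for counting error only; a difference between diets is a difference between these libraries.

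Leukocytes leave blood in steps. P-selectin (Selp) and E-selectin (Sele) on endothelium catch leukocytes that carry PSGL-1 (Selplg), and ICAM-1, ICAM-2 and VCAM-1 then hold them through integrins until they pass the junctions, where PECAM-1 lies. P-selectin and von Willebrand factor (Vwf) are stored together in the Weibel-Palade bodies of endothelial cells, while E-selectin, ICAM-1 and VCAM-1 are made after inflammatory signals such as tumor necrosis factor. ACKR1 is a chemokine receptor that binds without G protein signaling and is typical of venules, and LRG1 is a secreted leucine-rich glycoprotein known for its part in vessel growth.

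Start sites are shown for the member past 2-fold in endothelium with the most UMIs (Lrg1), for the inducible ICAM that was close between them (Icam1) and for the selectin that was near 0 (Sele). The windows are 250 bases before to 50 after the start in RefSeq (GRCm38.p6), 5' to 3' on the gene's strand. They matched 5 of the 10 members (these 3, Selp and Ackr1). Capitals mark matches to GGG followed after 5 bases by CC, a core of NF-kappaB sites, and to TTC followed after 3 bases by GAA, a core of STAT sites, on either strand. The former is in 50.8% of 32851 such windows and the latter in 8.30%. The Lrg1 window is chr17:56121897-56122196 on the minus strand, that of Icam1 is chr9:21015690-21015989 on the plus strand and that of Sele is chr1:164047984-164048283 on the plus strand.
Lrg1: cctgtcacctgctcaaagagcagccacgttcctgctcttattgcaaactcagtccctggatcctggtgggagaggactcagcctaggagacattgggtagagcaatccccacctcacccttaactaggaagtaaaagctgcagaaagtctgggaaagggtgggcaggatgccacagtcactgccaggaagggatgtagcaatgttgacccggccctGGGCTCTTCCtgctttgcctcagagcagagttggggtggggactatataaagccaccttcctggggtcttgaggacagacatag
Icam1: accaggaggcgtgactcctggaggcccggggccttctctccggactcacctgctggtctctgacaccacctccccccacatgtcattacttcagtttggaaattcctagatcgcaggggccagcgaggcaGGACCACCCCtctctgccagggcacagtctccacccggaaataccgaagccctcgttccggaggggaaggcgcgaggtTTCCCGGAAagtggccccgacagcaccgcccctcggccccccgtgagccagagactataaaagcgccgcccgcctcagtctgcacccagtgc
Sele: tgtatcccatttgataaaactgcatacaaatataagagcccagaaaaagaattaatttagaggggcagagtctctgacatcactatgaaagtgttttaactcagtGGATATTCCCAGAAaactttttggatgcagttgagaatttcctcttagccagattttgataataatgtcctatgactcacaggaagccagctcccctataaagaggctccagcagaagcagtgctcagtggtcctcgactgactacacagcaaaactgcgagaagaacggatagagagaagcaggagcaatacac
Lrg1 and Selp each had 1 match to the former and none to the latter, Icam1 and Sele had 1 match to each, which overlap in Sele, and Ackr1 had no match to either. A match is a match of letters, and no binding was measured.

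Barcodes with at least 200 genes (1057 for LFD and 1117 for HFD) were placed in classes by marker UMIs. A barcode was endothelial with 3 or more UMIs of Cdh5 and Cldn5, fibroblast with 10 or more of Dcn, macrophage with 10 or more of C1qa, C1qb and C1qc, and T cell with 2 or more of Cd3d, Cd3e and Cd3g. The endothelial class had 159 and 226 barcodes for LFD and HFD, the fibroblast class 388 and 311, the macrophage class 238 and 337, and the T cell class 73 and 22. Barcodes outside these classes were placed as dendritic (3 or more UMIs of Flt3, Xcr1, Clec9a, Cd209a and Ccr7), monocyte (5 or more of Plac8, Ly6c2, Ccr2 and Fcgr4) or NK cells (3 or more of Ncr1, Klrb1c and Gzma). Genes that the rule did not use were summed as a check, in CPM (UMI counts of a gene per 1000000 UMIs of the class). The 9 other endothelial genes, Kdr and Gpihbp1 among them, stood at 7161 and 6586 CPM in the endothelial class and at 530 and 510 CPM in the fibroblast class. The 6 fibroblast genes were at 26311 and 37629 CPM in fibroblasts. The 6 macrophage genes were at 11873 and 13984 CPM in macrophages and at 16585 and 15293 CPM in monocytes. Lyz2 made up most of the monocyte sum, at 15186 and 13203 CPM against 7455 and 9745 CPM in macrophages. Cd68, Adgre1, Csf1r and Mrc1 were higher in macrophages in both libraries. Ctss was at 749 and 1472 CPM in macrophages and at 760 and 1053 CPM in monocytes. The T cell class also carried macrophage RNA: Lck, Cd2, Il7r and Thy1 summed to 1196 and 1760 CPM there and the macrophage genes to 4985 and 3298 CPM. Most of the macrophage sum was Lyz2, at 4285 and 2342 CPM, with UMIs in 12 of 73 and 3 of 22 barcodes. Endothelial barcodes also carried RNA of other cells. In LFD and HFD, 58 and 108 endothelial barcodes had 5 or more UMIs of the mural genes Rgs5, Kcnj8, Abcc9 and Notch3, and their median of 14760.5 and 10036.5 UMIs lay above the 4500 and 3271.5 of the endothelial barcodes without them. Summed over the class, 6 fibroblast genes stood at 1861 and 3102 CPM, 9 leukocyte genes at 502 and 930 CPM with Cd3e and Cd3g at 0 in both libraries, and 7 lymphatic endothelial genes at 140 and 535 CPM. Of the lymphatic genes in HFD, 428 of the 556 Ccl21a UMIs and 92 of the 100 Mmrn1 UMIs each lay in 1 barcode with mural genes. The fibroblast, leukocyte and lymphatic lists were all higher in the HFD library. In the endothelial barcodes without mural genes they were at 373 and 229 CPM (fibroblast), 1046 and 861 CPM (leukocyte) and 276 and 351 CPM (lymphatic). Their part in the ratios below was not tested except where values without such barcodes are given.

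Of the 10 members, 8 reached the 20 UMIs over both diets that a ratio was read from in the endothelial class, and 2 of these were at least 2-fold higher in HFD: Lrg1 and Selp. No member was at least 2-fold lower. Among all 9711 genes read the same way in endothelium, 2.56% were at least 2-fold higher and 2.22% at least 2-fold lower in HFD. The median log2 ratio of all these genes was 0.01. Sele had 0 UMIs in both endothelial classes, and Ackr1 had 6 and 8 UMIs, under the limit.

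**Figure D1:**
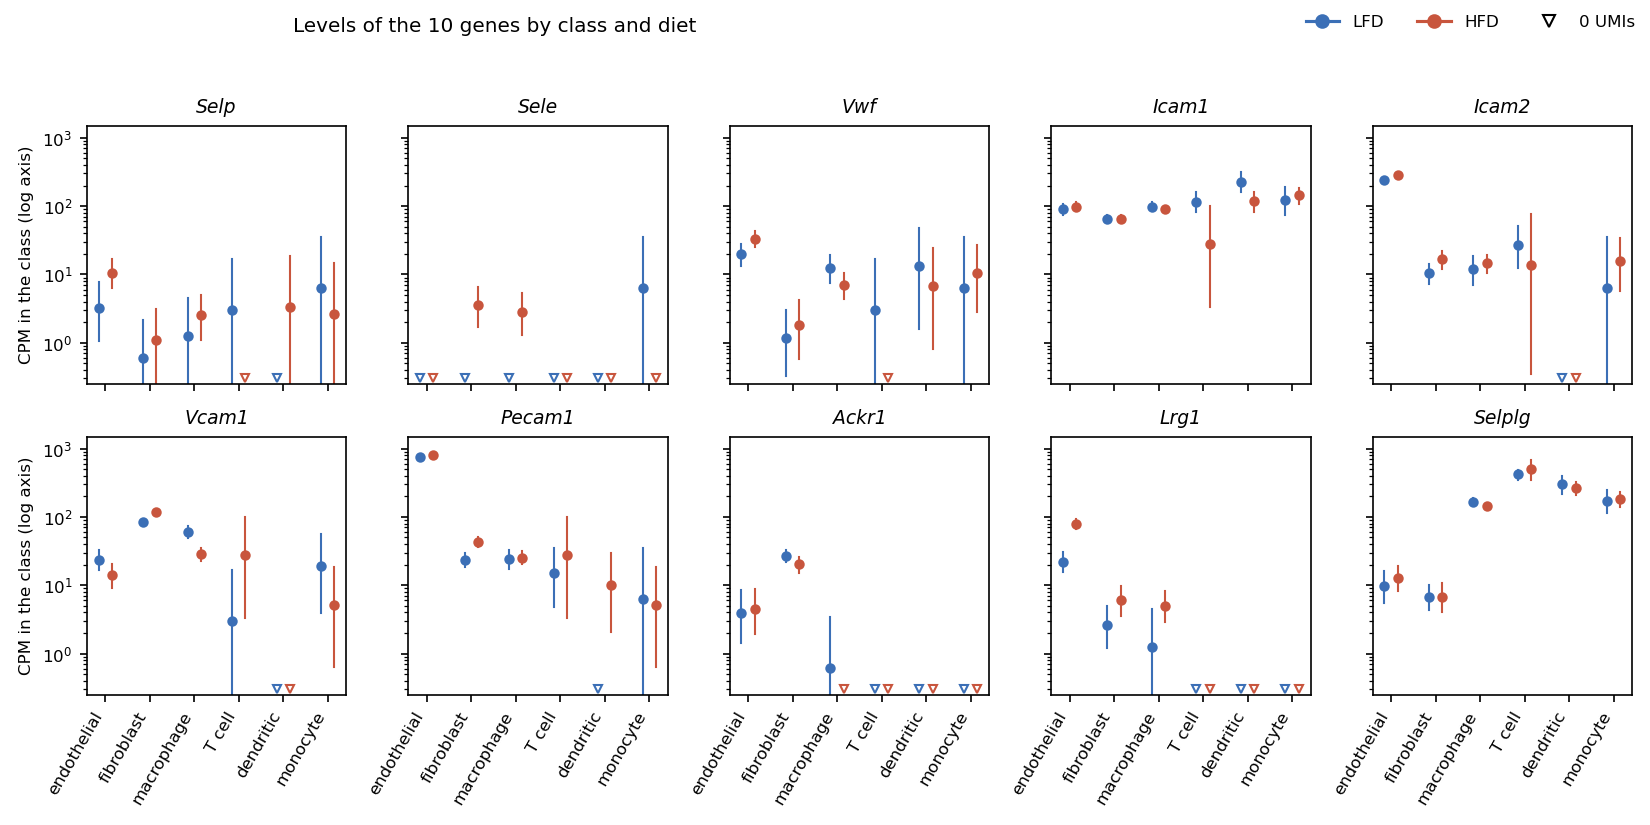
Level of each gene in CPM (log axis) in 6 classes of barcodes, in the LFD library (blue) and the HFD library (red). Points are the summed UMIs of a gene in CPM, bars are exact 95% counting intervals that run to the lower edge of the axis where they pass it, and open triangles mark classes with 0 UMIs. Pecam1 and Icam2 stand highest in endothelium, Selplg in the leukocyte classes, and Vcam1 and Ackr1 in fibroblasts.

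P-selectin transcripts were scarce. In the endothelial class Selp had 5 UMIs in 3 of 159 LFD barcodes and 19 UMIs in 6 of 226 HFD barcodes, which is 3.26 and 10.6 CPM and a ratio of 3.26 (1.18 to 11.2). A single HFD barcode held 9 of the 19 UMIs, and the share of endothelial barcodes with a Selp UMI was 1.89% (0.391 to 5.41) in LFD and 2.65% (0.980 to 5.69) in HFD, which overlap. Without the barcodes that a doublet caller marked, 5 and 14 UMIs were left and the ratio was 2.56 (0.872 to 9.09). In barcodes without mural genes Selp had 4 and 15 UMIs, a ratio of 4.26 (1.36 to 17.6). In those with no leukocyte UMI it had 4 and 6, a ratio of 1.42 (0.336 to 6.83) that is under 2-fold. The 8 Selp UMIs of the HFD macrophage class lay mostly in 1 barcode. That barcode had 7 Selp UMIs with 34 of Prg4, 33 of Alox15, 16 of Pf4 and 7 of Icam2, the first pair being genes known from large peritoneal macrophages.

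E-selectin was close to undetected. There was 1 Sele UMI in the LFD library, in a monocyte barcode, and 13 in the HFD library. The endothelial class had 0 of 159 and 0 of 226 barcodes with a Sele UMI. A limit of 3 counts, which is not an exact interval, allows shares with a detected UMI of up to 1.89% and 1.33%. The HFD UMIs were in fibroblast and macrophage barcodes: 1 barcode that was in both classes had 6, a fibroblast barcode had 3, a macrophage barcode had 2 and 1 more of each class had 1.

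Von Willebrand factor RNA was carried by few barcodes, and its direction between the diets depended on which of them were kept. Vwf had 30 UMIs in 18 LFD endothelial barcodes and 59 UMIs in 17 HFD ones, or 19.6 and 33.0 CPM, a ratio of 1.69 (1.07 to 2.71). The share of barcodes with a UMI went the other way, at 11.3% (6.85 to 17.3) in LFD and 7.52% (4.44 to 11.8) in HFD. In HFD, 1 barcode held 30 of the 59 UMIs, and without the barcode highest in Lrg1 of each library, which is this one, the ratio was 1.19 (0.653 to 2.19). It was 0.813 (0.449 to 1.46) without the barcodes that a doublet caller marked and 0.845 (0.489 to 1.46) without those marked as lymphatic, both of which also leave out this barcode. All 3 of these intervals include 1. Subsets that keep it gave wider ratios, 2.11 (1.21 to 3.77) without mural genes and 2.15 (1.21 to 3.98) with no leukocyte UMI, both past 2-fold, and without the barcode highest in Lrg1 of each library these became 0.858 (0.319 to 2.22) and 1.16 (0.436 to 3.16). Vwf was also seen in the macrophage class, in 17 of 238 LFD and 21 of 337 HFD barcodes. Among macrophage barcodes that were in no other class, 6.99% (16 of 229) and 6.25% (20 of 320) had a Vwf UMI, against 0 of 377 and 0 of 293 fibroblast barcodes in no other class. The fibroblasts were the deeper class, with medians of 8500 and 7908 UMIs against 6313 and 6897 in these macrophages. No macrophage barcode held more than 3 Vwf UMIs.

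Genes of Weibel-Palade bodies were read from a fixed list of 10 that includes Vwf and Selp. Of these, 7 reached 20 UMIs in endothelium, 2 were at least 2-fold higher in HFD and none was lower, against 2.56% higher and 2.22% lower among all genes read. One of the 2 is Selp, counted above, and the other is Edn1, the endothelin-1 gene, at 9.79 and 34.7 CPM (ratio 3.54, 1.99 to 6.71). Cd63, a membrane protein of these bodies and of lysosomes, was at 250 and 409 CPM (1.64, 1.45 to 1.86), and Igfbp7 at 2412 and 3054 CPM (1.27, 1.21 to 1.32).

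Lrg1 was the other member past 2-fold in endothelium. It had 34 UMIs in 15 of 159 LFD barcodes and 143 UMIs in 46 of 226 HFD barcodes. This is 22.2 CPM (15.4 to 31.0) against 80.0 CPM (67.4 to 94.2), a ratio of 3.60 (2.47 to 5.41). Its interval overlaps that of Selp, and the order of the 2 ratios changed with the barcodes kept: without the barcode highest in Lrg1 of each library Selp was at 4.86 and Lrg1 at 3.11. The share of endothelial barcodes with a UMI was 9.43% (5.38 to 15.1) and 20.4% (15.3 to 26.2). When each barcode was thinned to 1000 UMIs, which leaves out 7 LFD and 20 HFD barcodes, 3 of 152 and 12 of 206 had one (1.97% and 5.83%). Lrg1 was mostly an endothelial transcript: the endothelial class held 72.3% and 80.8% of all its UMIs, T cells had 0 of 73 and 0 of 22 barcodes with a UMI, and fibroblasts in no other class had 1 of 377 and 1 of 293. Macrophages in no other class had 2 of 229 (0.873%) in LFD and 12 of 320 (3.75%, 1.95 to 6.46) in HFD.

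The Lrg1 gap was checked in subsets of the endothelium. In barcodes without mural genes Lrg1 was at 36.1 and 155 CPM (ratio 4.28, 2.65 to 7.20), and in those with mural genes at 13.0 and 47.9 CPM (3.69, 1.96 to 7.54). In barcodes with no UMI of the leukocyte list it was at 25.8 and 106 CPM (4.11, 2.59 to 6.78). In HFD, 56 of the 143 UMIs came from 1 barcode, which has no mural genes and holds 56 of the 83 HFD UMIs of the barcodes without them. The share of barcodes with an Lrg1 UMI there was 10.9% (11 of 101) and 13.6% (16 of 118), with overlapping intervals, and the ratio without the highest barcode of each library was 2.57 (1.26 to 5.58). In the barcodes with mural genes the share was 6.90% (4 of 58, 1.91 to 16.7) and 27.8% (30 of 108, 19.6 to 37.2). Leukocyte RNA was also higher there in HFD, with Lyz2 at 44.4 and 487 CPM, and its part was not tested. With no leukocyte UMI the share with an Lrg1 UMI was 9.01% (4.41 to 15.9) and 16.0% (10.4 to 23.0), with overlapping intervals. Over the whole class, without the highest barcode of each library the ratio was 3.11 (1.96 to 5.11). Leaving out barcodes with 3 or more UMIs of Prox1, Ccl21a, Mmrn1 and Reln, which mark lymphatic endothelium (2 in LFD and 3 in HFD), gave 2.32 (1.53 to 3.60). Leaving out the 9 and 16 endothelial barcodes marked as doublets gave 23.1 and 45.6 CPM, a ratio of 1.97 (1.28 to 3.10) that is just under 2-fold, with UMIs in 8.67% of 150 and 19.0% of 210 barcodes. The HFD barcode with 56 Lrg1 UMIs is also marked as a doublet and as lymphatic, so these 3 alternatives all leave it out. Its lymphatic mark rests on 3 Prox1 UMIs alone, with 0 of Ccl21a, Mmrn1 and Reln. The CPM of Lrg1 stayed higher in HFD in each of these subsets. The interval crossed 1 where only barcodes within the study's limits of 2500 genes and 5% mitochondrial UMIs were kept, which left 2 and 7 Lrg1 UMIs in 52 and 66 barcodes.

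**Figure D2:**
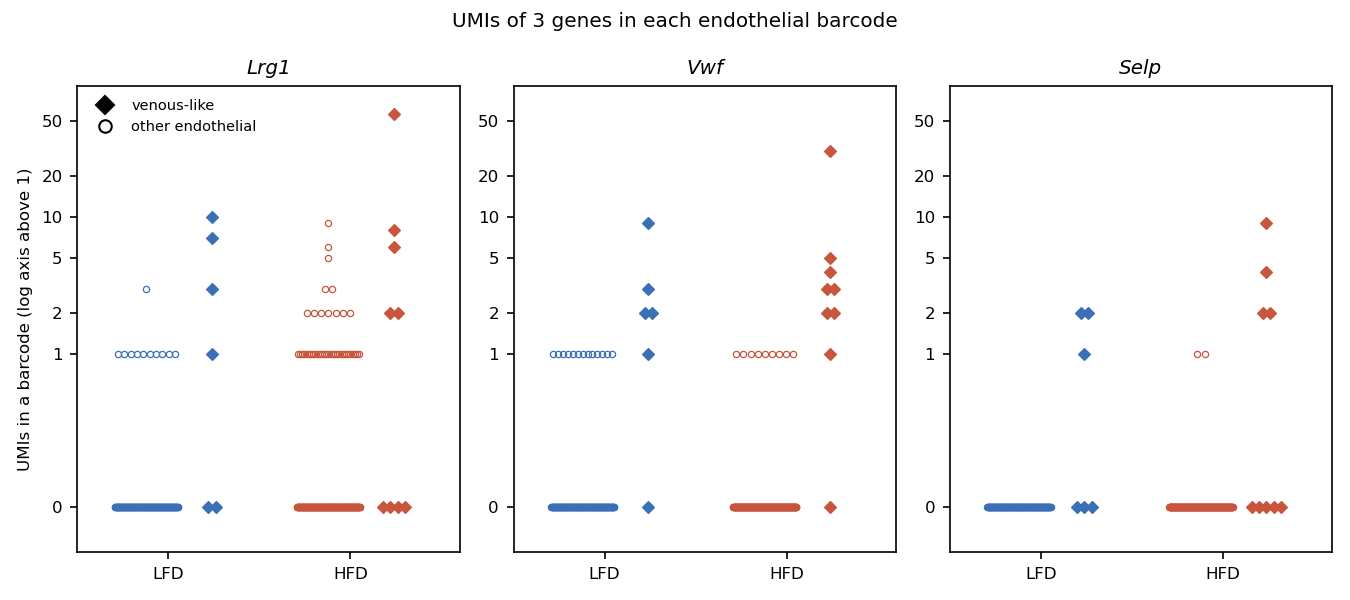
UMIs of Lrg1, Vwf and Selp in each endothelial barcode of the LFD (blue) and HFD (red) libraries, with a log axis above 1 UMI. Filled diamonds are the 6 LFD and 9 HFD barcodes with 2 or more UMIs of Selp, Ackr1 and Vwf together, open circles are the other endothelial barcodes, and points at equal counts overlap. In HFD, 1 barcode has 56 Lrg1 and 30 Vwf UMIs, and many other HFD barcodes have 1 or 2 Lrg1 UMIs.

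The immunoglobulin-family genes that mark endothelium at rest differed little between the diets. Pecam1 was in 144 of 159 LFD and 201 of 226 HFD endothelial barcodes, at 746 CPM (704 to 791) and 795 CPM (754 to 837), a ratio of 1.06 (0.984 to 1.15). Icam2, a ligand of leukocyte integrins that resting endothelium carries, was at 239 CPM (215 to 265) and 282 CPM (258 to 308), a ratio of 1.18 (1.03 to 1.36). The endothelial class held 97.0% and 97.5% of all Pecam1 UMIs and 93.6% and 93.9% of all Icam2 UMIs. In fibroblasts Pecam1 stood at 23.6 and 43.1 CPM, a ratio of 1.83 (1.36 to 2.45), but in fibroblast barcodes that were in no other class it was at 3.16 and 3.66 CPM. Fibroblast barcodes that were also in another class held most of it.

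Icam1, the inducible ICAM, was found in each of the larger classes and was close between the diets in most of them. In endothelium it was in 41.5% (33.8 to 49.6) and 37.2% (30.9 to 43.8) of barcodes, at 89.4 CPM (75.0 to 106) and 98.4 CPM (84.4 to 114), a ratio of 1.10 (0.876 to 1.39). Fibroblasts had 64.1 and 64.7 CPM (1.01, 0.824 to 1.24), and macrophages 98.1 and 89.2 CPM (0.909, 0.746 to 1.11). The intervals of these 3 ratios all include 1 and leave out a 1.5-fold difference. Dendritic cells had 228 CPM (159 to 318) in LFD and 117 CPM (81.7 to 163) in HFD, from 35 UMIs in each library and 17 and 42 barcodes, a ratio of 0.513 (0.312 to 0.845). T cells had 39 Icam1 UMIs in LFD and 2 in HFD, or 117 and 27.7 CPM (0.238, 0.0278 to 0.918). Of the 2 members that could be read in T cells this was the 1 past 2-fold, where 13% of 3082 genes were at least 2-fold lower and 5.55% at least 2-fold higher in HFD. The part of the macrophage RNA of the T cell class in its Icam1 was not tested. Monocytes had 121 and 143 CPM (1.18, 0.689 to 2.10). Icam1 and Selplg were the 2 members that could be read in dendritic cells and in monocytes, and 0 of 2 were past 2-fold in either class, where 9.46% and 12.3% of genes were past it in either direction.

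Vcam1 was low in endothelium and highest in fibroblasts. Endothelial barcodes had 36 UMIs in LFD and 25 in HFD, or 23.5 CPM (16.4 to 32.5) and 14.0 CPM (9.05 to 20.6), a ratio of 0.595 (0.342 to 1.02). These UMIs lay in 10 of 159 LFD and 20 of 226 HFD barcodes, so the share of barcodes went the other way. A single LFD barcode, which also had 100 Dcn and 229 C1q UMIs, held 10 of the 36, and in endothelial barcodes that met neither the fibroblast nor the macrophage limit Vcam1 was at 13.0 and 12.4 CPM. Fibroblasts had 285 UMIs in 149 of 388 LFD barcodes and 331 in 164 of 311 HFD barcodes. That is 84.1 CPM (74.6 to 94.5) and 119 CPM (106 to 132), a ratio of 1.41 (1.20 to 1.66), and a share of 38.4% (33.5 to 43.4) against 52.7% (47.0 to 58.4). Within the kinds of fibroblast described below the ratio was smaller, 1.14 (0.929 to 1.39) in barcodes with no Pi16 or Dpp4 UMI and 1.29 (0.890 to 1.86) in those with 2 or more, and both intervals include 1. Fibroblasts held 68.3% and 75.2% of all Vcam1 UMIs. In 1 LFD barcode that was in no class, with 6849 UMIs and none of Cdh5, Cldn5 or Dcn, there were 24 Vcam1 UMIs.

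In macrophages Vcam1 was lower in HFD. It had 98 UMIs in 38 of 238 LFD barcodes and 90 in 45 of 337 HFD barcodes, or 60.8 CPM (49.4 to 74.1) and 28.3 CPM (22.7 to 34.7), a ratio of 0.464 (0.345 to 0.625). Vcam1 was the 1 member past 2-fold of 6 read in macrophages, in a class where 7.43% of 9712 genes were at least 2-fold lower and 6.33% at least 2-fold higher in HFD. The mixed LFD barcode with 100 Dcn UMIs held 10 of the 98 UMIs, and in macrophages of no other class Vcam1 was at 52.7 and 27.6 CPM, a ratio of 0.523 (0.378 to 0.724) that is just short of 2-fold. The macrophages of the libraries differed in kind. Barcodes with 3 or more UMIs of Timd4, Ccl24 and Lyve1, genes of resident macrophages, were 199 of 238 in LFD and 109 of 337 in HFD. Within these Vcam1 was at 47.1 and 17.6 CPM (0.374, 0.194 to 0.672), and in the other 39 LFD and 228 HFD barcodes at 153 and 31.8 CPM (0.208, 0.136 to 0.325). With barcodes of another class left out as well, the ratios were 0.458 (0.227 to 0.862) and 0.207 (0.134 to 0.326), so Vcam1 was lower in HFD within both kinds. Of 5 members read in the resident kind 2 were at least 2-fold lower and none higher, Vcam1 and Pecam1 (39 and 2 UMIs), against 6.5% lower and 2% higher among 7944 genes. Of 6 read in the other kind 2 were lower, Vcam1 and Vwf (5 and 20 UMIs), and 2 higher, Icam2 (1 and 36 UMIs) and Pecam1 (0 and 79 UMIs), against 9.23% lower and 18% higher among 8191 genes. Most of this Pecam1 and Icam2 lay in barcodes that passed another limit too. Among macrophages of the other kind that were in no other class Icam2 had 1 and 11 UMIs (4.77 and 5.19 CPM) and Pecam1 0 and 7, under the minimum for a ratio, and of 4 members read none was higher and 2, Vcam1 and Vwf, were lower, against 15.3% higher and 10.1% lower among 7677 genes. In the resident kind Pecam1 then had 2 and 2 UMIs. Within the study's limits on genes and mitochondrial UMIs the log2 ratio was -0.25, against -1.11 over all macrophage barcodes.

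**Figure D3:**
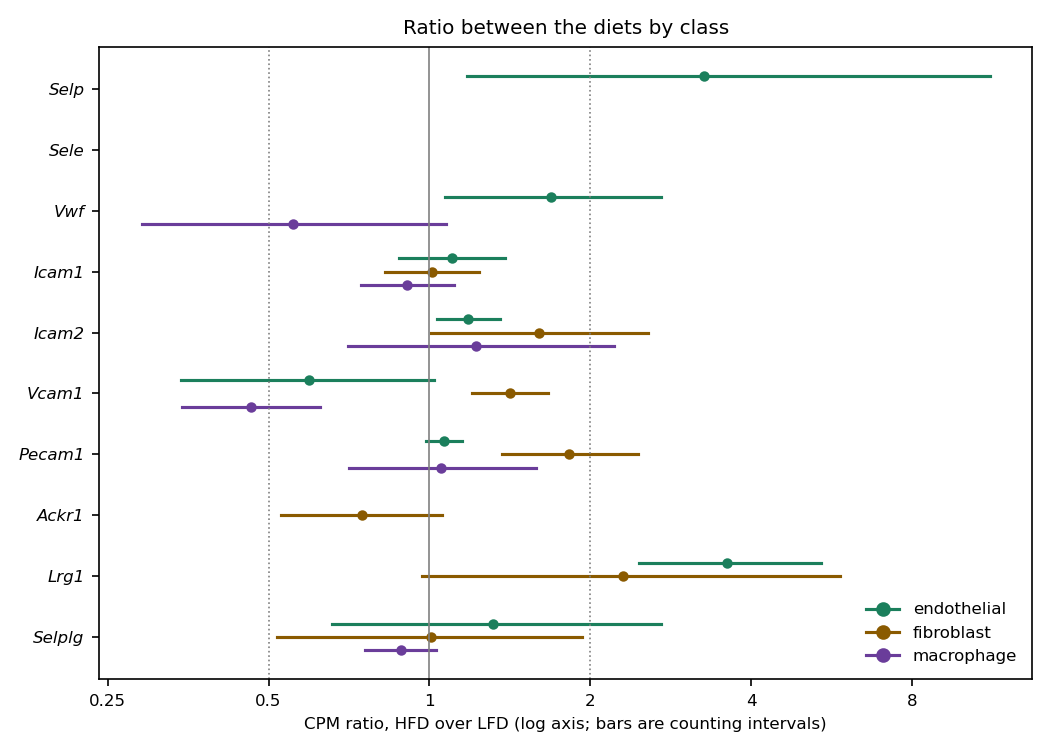
CPM ratio of HFD over LFD (log axis) for each gene in the endothelial, fibroblast and macrophage classes, drawn where a gene had 20 or more UMIs over both diets in the class. Points are ratios, bars are exact 95% counting intervals, and dotted lines mark 2-fold. Endothelial Lrg1 (3.60) and Selp (3.26) lie past 2-fold, as do fibroblast Lrg1 (2.30) and macrophage Vcam1 (0.464), and Vcam1 lies on opposite sides of 1 in fibroblasts and macrophages.

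In the fibroblast class 7 members could be read, and 1 of them, Lrg1, was past 2-fold, where 2.95% of 10836 genes were at least 2-fold higher and 3.81% at least 2-fold lower in HFD. It rested on 9 and 17 UMIs in 3 and 4 barcodes (2.66 and 6.11 CPM, ratio 2.30, 0.970 to 5.86), and with barcodes of 1 class alone it was at 1 and 1 UMI. Ackr1 was a fibroblast transcript in these libraries. Fibroblasts held 91 of its 98 LFD UMIs and 56 of its 61 HFD UMIs, in 72 of 388 barcodes (18.6%, 14.8 to 22.8) and 43 of 311 (13.8%, 10.2 to 18.2), at 26.9 and 20.1 CPM (ratio 0.749, 0.527 to 1.06). In macrophages, the shallower class with medians of 6393 and 6997 UMIs against 8532 and 8062 in fibroblasts, 1 of 238 and 0 of 337 barcodes had an Ackr1 UMI. The endothelial class had 6 UMIs in 2 barcodes in LFD and 8 UMIs in 6 barcodes in HFD.

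Ackr1 and Vcam1 were split the opposite way within the fibroblasts. Pi16 and Dpp4 mark interstitial progenitors, and barcodes with mesothelial genes were left out of this split. Among fibroblasts with 2 or more UMIs of Pi16 and Dpp4, Ackr1 was in 54 of 156 LFD barcodes (34.6%, 27.2 to 42.6) and 29 of 81 HFD barcodes (35.8%, 25.4 to 47.2). Among those with none it was in 9 of 156 (5.77%, 2.67 to 10.7) and 12 of 171 (7.02%, 3.68 to 11.9). Median depth was 9192 and 9643 UMIs in the former and 8041 and 7803 in the latter. Summed over the barcodes, Ackr1 was at 50.3 and 43.1 CPM with these genes and at 8.91 and 12.5 CPM without them. Vcam1 was at 51.1 and 65.8 CPM with Pi16 and Dpp4 and at 140 and 159 CPM without them, and Icam1 at 41.7 and 40.7 CPM against 87.5 and 77.6 CPM. Between these 2 groups of barcodes both libraries showed the same order for all 3 genes. The barcodes with 2 or more UMIs of Pi16 and Dpp4 were 156 in LFD and 81 in HFD.

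**Figure D4:**
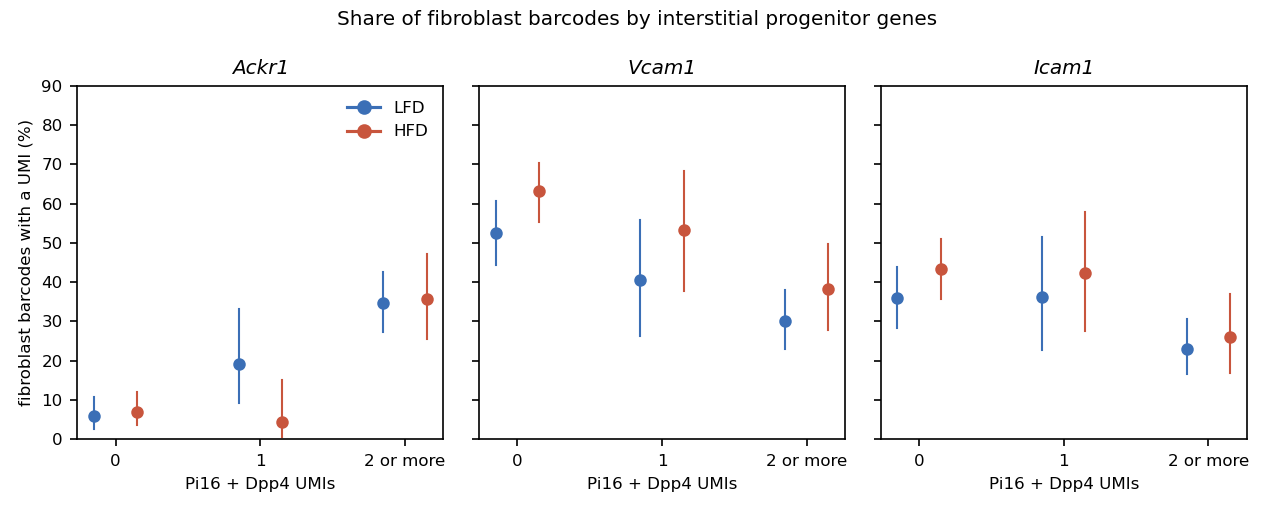
Share of fibroblast barcodes with a UMI of Ackr1, Vcam1 or Icam1 (percent), by the summed UMIs of Pi16 and Dpp4 in the barcode, in LFD (blue) and HFD (red). Bars are exact 95% binomial intervals, and barcodes with mesothelial genes are left out. The Ackr1 share goes from 5.77% and 7.02% at 0 UMIs to 34.6% and 35.8% at 2 or more, and the Vcam1 and Icam1 shares are lower at 2 or more than at 0.

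Ackr1 shares part of its sequence with a neighbor. In GRCm38, the assembly also called mm10, Ackr1 lies on chromosome 1, 173331886 to 173333750, on the minus strand, and the protein-coding gene Cadm3, at 173333258 to 173367695 on the same strand, overlaps its start. A transcript that runs from Cadm3 into Ackr1 could not be told apart from Ackr1 by UMI counts. Cadm3 was at 64.6 and 32.3 CPM in fibroblasts, from 219 and 90 UMIs. In fibroblasts with a Cadm3 UMI, Ackr1 was in 43 of 127 LFD barcodes (33.9%, 25.7 to 42.8) and 21 of 66 HFD barcodes (31.8%, 20.9 to 44.4). In those without it was in 29 of 261 (11.1%, 7.57 to 15.6) and 22 of 245 (8.98%, 5.71 to 13.3). With Cadm3-bearing barcodes left out, Ackr1 was still in 26.1% (18 of 69) and 24.5% (12 of 49) of the fibroblasts with 2 or more Pi16 and Dpp4 UMIs, and in 2.33% (3 of 129) and 5.30% (8 of 151) of those with none. In the same subsets the CPM ratio between the diets was 0.969 (0.602 to 1.53) with a Cadm3 UMI and 0.807 (0.464 to 1.39) without.

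PSGL-1, the ligand of the selectins, was on the leukocyte side. Selplg was at 419 CPM (352 to 494) and 499 CPM (349 to 691) in T cells, at 442 and 527 CPM in NK cells, at 300 and 265 CPM in dendritic cells, at 172 and 182 CPM in monocytes and at 166 CPM (147 to 188) and 147 CPM (134 to 161) in macrophages. Ratios between the diets were 1.19 (0.802 to 1.73) in T cells, 0.882 (0.606 to 1.30) in dendritic cells, 1.06 (0.668 to 1.71) in monocytes and 0.883 (0.758 to 1.03) in macrophages, all with 1 inside the interval. In endothelium it was at 9.79 and 12.9 CPM. In endothelial barcodes with no UMI of the leukocyte list it was at 0 UMIs in LFD and 9 UMIs in HFD, or 9.54 CPM. The order of T cells and NK cells, and that of monocytes and macrophages, was within counting error in both libraries.

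Partners of the adhesion molecules were read from a fixed list of 10 leukocyte integrins and other receptors. In macrophages 8 of them had 20 or more UMIs, 2 were at least 2-fold higher in HFD and none was lower, where 6.33% of all genes were higher and 7.43% lower. Itgax, the alpha chain of an integrin that binds ICAM-1, was at 2.48 and 92.9 CPM (ratio 37.4, 14.5 to 138), and Cd44, a hyaluronan receptor, at 143 and 334 CPM (2.34, 2.02 to 2.71). Itgb2, the beta chain shared by the ICAM-1 receptors, was at 156 and 260 CPM (1.67, 1.44 to 1.93). Itgb1, whose product pairs with that of Itga4 to bind VCAM-1, was at 261 and 250.2 CPM (0.960, 0.851 to 1.08). In T cells 8 could be read and 1, Itgam, was past 2-fold, from 28 and 3 UMIs, where 13% of genes were lower and 5.55% higher. The part of the macrophage RNA of the T cell class in its Itgam was not tested. Dendritic cells and monocytes had 7 and 9 genes to read and none past 2-fold, where 9.46% and 12.3% of all genes were past it. Of 10 genes for the sugar and sulfate groups that PSGL-1 needs to bind selectins, 6 were read in macrophages and 2 were lower in HFD, against 7.43% of all genes there. They were St3gal6 at 62.1 and 17.0 CPM (0.273) and B4galt1 at 45.3 and 20.7 CPM (0.457). The macrophage ratios of these lists are over the whole class. Barcodes of the resident kind were 199 of its 238 in LFD and 109 of 337 in HFD, and the part of this in the ratios was not tested.

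The further genes of endothelial activation mostly stayed within 2-fold in endothelium, as did most genes there (2.56% of all genes were higher and 2.22% lower), so counts of 0 in lists of 7 to 12 genes do not set these lists apart. None of 12 junction genes was past it, with a median log2 ratio of -0.08; VE-cadherin (Cdh5) was at 1198 and 1210 CPM (1.01, 0.948 to 1.07), and the rule for the class used it. None of 7 cytokine receptors was past it either, and Tnfrsf1a, a receptor of tumor necrosis factor, was at 211 and 241 CPM (1.14, 0.988 to 1.33). Of 8 genes of flow and quiescence none was past it, and Klf2, a factor induced by flow, was at 932 and 933 CPM (interval of the ratio 0.932 to 1.07). Of 14 genes that respond to NF-kappaB and other inflammatory signals, 1 was at least 2-fold higher and 2 at least 2-fold lower, beside those same shares of all genes. Il6 was at 10.4 and 29.1 CPM (2.79, 1.57 to 5.23), Irf1, an interferon response factor, at 254 and 106 CPM (0.415, 0.347 to 0.495), and Nfkbie at 9.13 and 4.47 CPM from 14 and 8 UMIs. In endothelial barcodes without mural genes Il6 had 1 and 4 UMIs and Irf1 was at 264 and 127 CPM (0.479, 0.356 to 0.640).

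Endothelial barcodes called venous-like by a rule on Selp, Ackr1 and Vwf were rare. The barcodes with 2 or more UMIs of Selp, Ackr1 and Vwf together numbered 6 of 159 in LFD (3.77%, 1.40 to 8.03) and 9 of 226 in HFD (3.98%, 1.84 to 7.42). Selp, Ackr1 and Vwf chose these barcodes, so their levels there are no finding. The chosen barcodes were also deeper, with medians of 16647 and 9964 UMIs against 6523 and 6210 in the other endothelial barcodes. A sum of 2 or more was also reached in 19 LFD and 10 HFD fibroblast barcodes and in 3 and 2 macrophage barcodes. It was reached in 1 HFD monocyte and 1 LFD barcode of no class too. Some barcodes are in more than 1 of the class counts, and 26 LFD and 21 HFD barcodes reached it in all. The sum is thus not particular to endothelium. Among genes the rule did not use, Lrg1 was at 477 CPM in the 15 barcodes and 26.3 CPM in the other endothelial barcodes (ratio 18.1, 13.4 to 24.7), Vcam1 at 115 and 12.2 CPM (9.48, 5.39 to 16.3) and Tmem252 at 442 and 153 CPM (2.89, 2.28 to 3.63). Of the 95 Lrg1 UMIs in the 15 barcodes 1 barcode held 56, and without it Lrg1 was at 205 CPM (7.82, 5.20 to 11.6). Without the 3 barcodes highest in Lrg1, 21 UMIs were left in 12 barcodes, or 116 CPM (4.42, 2.60 to 7.21). Of the 23 Vcam1 UMIs 14 lay in 3 barcodes that also passed the fibroblast limit, and with barcodes of another class left out on both sides Vcam1 was at 72.3 and 9.85 CPM, from 9 UMIs (7.34, 3.03 to 16.2). Nr2f2, the factor that sets venous identity, was at 140 and 107 CPM (1.31, 0.857 to 1.93), and Ephb4 at 70.2 and 45.2 CPM (1.56, 0.829 to 2.70). Il1r1 was at 40.1 and 18.9 CPM (2.12, 0.876 to 4.46) and Adgrg6 had 2 and 5 UMIs (6.27, 0.597 to 38.3). None of these venous genes was apart from the rest beyond counting error. Several arterial genes were also higher: Clu (100 and 4.80 CPM), Fbln5 (266 and 61.2 CPM), Stmn2 (85.3 and 14.7 CPM), Hey1 (85.3 and 27.9 CPM) and Gja5 (3 and 5 UMIs). The ratios of the arterial genes Gja4, Sema3g, Efnb2 and Bmx had intervals that include 1. Venous-like is thus the name of the rule, and genes outside it do not set these barcodes apart as venous rather than arterial. Capillary genes were lower, such as Kdr (416 and 800 CPM) and Car4 (110 and 322 CPM).

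The 15 barcodes were not alike. Gpihbp1, which anchors lipoprotein lipase on capillaries, was at 0 or 1 UMI in 3 of them and at 3 to 74 in the other 12. The first of the 3, in HFD, had 9472 UMIs with 56 Lrg1, 30 Vwf, 2 Selp, 2 Ackr1, 3 Vcam1 and 11 Clu, no Gpihbp1, no Cd36 and 3 Prox1, a lymphatic factor. The second, in HFD, had 2810 UMIs with 9 Selp, 5 Vwf, 8 Lrg1 and 3 Vcam1, no Gpihbp1 and 12 Cd36. The third, in LFD, had 6097 UMIs with 9 Vwf, 5 Ackr1, 2 Selp, 10 Lrg1, 2 Vcam1 and 11 Tmem252, 1 Gpihbp1 and 2 Cd36. Of the other 12, 3 also passed the fibroblast limit, with 100, 153 and 104 Dcn UMIs, and 4 others had 5 or more mural UMIs. Summed UMIs of Nr2f2, Ephb4, Il1r1, Tmem252 and Adgrg6 are set against those of the arterial genes above. In the LFD barcodes they were 15/11, 4/5, 3/2, 31/15, 18/3 and 19/2. In the HFD barcodes they were 10/12, 8/4, 9/3, 8/4, 2/23, 0/18, 5/29, 4/8 and 4/20. A doublet caller marked 1 LFD and 2 HFD barcodes among the 15. Without all 15, Lrg1 was at 9.16 and 40.5 CPM in endothelium, a ratio of 4.43 (2.43 to 8.73), and with marked doublets left out as well at 8.41 and 39.3 CPM, a ratio of 4.67 (2.43 to 9.89). Vwf was not compared without the 15, since the rule leaves at most 1 Vwf UMI in each barcode that stays.

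The barcodes just inside the limit for the endothelial class, with 3 or 4 UMIs of Cdh5 and Cldn5, were 13 and 16, and Pecam1 was in 7 and 11 of them. One of these, the LFD venous-like barcode of 6097 UMIs, held 10 of the 34 Lrg1, 9 of the 30 Vwf, 5 of the 6 Ackr1 and 2 of the 5 Selp UMIs of LFD endothelium. With barcodes of 5 or more alone the ratio was 5.08 (3.28 to 8.19) for Lrg1, 2.40 (1.43 to 4.15) for Vwf and 5.40 (1.59 to 28.5) for Selp, so Vwf was then past 2-fold. Those just outside, with 1 or 2, were 38 and 62, and Pecam1 was in 7 and 8. One LFD barcode of no class, with 575 UMIs, had 4 Selp and 2 Pecam1 UMIs without Cdh5 or Cldn5.

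The genes closest in pattern to each member were found over 20 points, 10 classes in each of 2 libraries, by Pearson's r of log2 (CPM + 10). The points share libraries and depth, and r is given as a description. Pecam1 was most like Dysf (0.955) and Mmrn2 (0.935), Icam2 like Sh3bp5 (0.935) and Rapgef5 (0.931), and Selplg like Epsti1 (0.978) and Cd48 (0.966). Ackr1 was most like Abi3bp (0.958) and Car8 (0.958). Values were lower for Icam1 with Zfp800 (0.914), Vcam1 with Igfbp4 (0.884), Lrg1 with Mest (0.881) and Vwf with Rnf144b (0.841). Selp and Sele had too few UMIs to be compared in this way.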

How the data were processed

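The deposited files hold whole-number UMI counts per gene and barcode, which the authors made with Cell Ranger (3.0.2 per the file headers; the methods name another release) on mm10. Cells were dissociated from the tissue with an enzyme kit. No normalization or cell filter beyond cell calling was in the files: the barcode numbers lie near the number of cells that the methods say were captured, and the study's stated limits (200 to 2500 genes, under 5% mitochondrial UMIs) leave 294 of 1113 LFD and 352 of 1144 HFD barcodes, so they were used only as an alternative.

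Barcodes were classed by raw marker counts. UMIs were summed per class and library and divided by the UMIs of the class (CPM). Levels have exact Poisson, shares Clopper-Pearson and ratios exact conditional binomial 95% intervals. A ratio was read with 20 or more UMIs over both diets, and 2-fold was the limit. The upper limit for a share of 0 is 3 counts. All members are named; of the fixed lists, genes past 2-fold or the 3 with the most UMIs could be. Scrublet (in scanpy 1.11.5) marked 20 LFD and 26 HFD barcodes; they were kept. Gene positions are from GENCODE M21. The members and lists were chosen with earlier results of these data known. The ratio code was tested on simulated data. Python 3.11.15 and scipy 1.17.1 were used.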

Additional observations from a re-analysis of the deposited data

Results flagged for a closer look

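Vcam1 went in opposite directions in fibroblasts and macrophages. The log2 ratio of HFD over LFD was 0.50 in fibroblasts and -1.11 in macrophages, a difference of 1.61, and the intervals of the 2 ratios (1.20 to 1.66 and 0.345 to 0.625) lie on either side of 1. Each class rests on 1 library per diet, so the difference was not tested. In fibroblasts without mesothelial genes Vcam1 was at 91.9 and 126 CPM (ratio 1.37, 1.16 to 1.61). Within kinds of these fibroblasts the ratio was 1.14 (0.929 to 1.39) in barcodes with no Pi16 or Dpp4 UMI and 1.29 (0.890 to 1.86) in those with 2 or more, of which there were 156 in LFD and 81 in HFD, so neither interval leaves out 1. In macrophages of no other class the ratio was 0.523 (0.378 to 0.724).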

How the results depend on the processing

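No paired analysis was possible because each diet has 1 library. The counts of members past 2-fold (endothelium 2 of 8 read, fibroblasts 1 of 7, macrophages 1 of 6, T cells 1 of 2) rest on few UMIs and moved often. The shares in brackets are of all genes read in that class under the same setting, in either direction. With no change of setting they are 4.79%, 6.76%, 13.8% and 18.6%. Within the study's limits on genes and mitochondrial UMIs the counts were 0 of 3 in endothelium (9.11%), 0 of 3 in macrophages (17.1%) and 0 of 1 in T cells (16.3%). With barcodes of 1 class alone they were 0 of 3 in fibroblasts (6.31%) and 0 of 5 in macrophages (14.6%), and with lower class limits 3 of 7 in fibroblasts (6.78%) and 2 of 3 in T cells (16.8%). Without Scrublet doublets they were 0 of 6 in endothelium (4.44%) and 0 of 6 in fibroblasts (6.64%). With higher class limits endothelium had 3 of 8 (5.09%). By mean CPM over barcodes the counts were 3 of 8 in endothelium (10.3%), 2 of 7 in fibroblasts (7.77%) and 0 of 2 in T cells (27.3%). A limit of 1.5-fold gave 4 in endothelium (15.8%), 3 in fibroblasts (19%) and 2 in macrophages (35.4%). A minimum of 50 UMIs gave 1 of 6 in endothelium (2.2%), 0 of 5 in fibroblasts (3.72%) and 0 of 1 in T cells (8.71%). Thinning to 1000 UMIs per barcode gave 1 of 4 (8.43%), 0 of 3 (8.32%) and 0 of 1 (13.8%) in these classes. With so few members read, most of these counts of 0 are near the share of all genes. The venous-like share at a minimum of 1 UMI was 12.6% and 10.2% in LFD and HFD, and at a minimum of 4 it was 0.629% and 1.77%. Of 255 recomputed log2 ratios of single members, 222 moved by less than their counting interval and 33 by more, 20 of them downwards, and 34 changed sign, most from values near 0 or from Vwf in endothelium. Of 38 CPM levels 13 moved, 7 downwards, and 37 of 38 shares were lower after thinning. Alternatives that leave out venous-like, lymphatic-marked, mesothelial-marked or Cadm3-bearing barcodes or split classes by marker genes, raise the endothelial limit to 5 or drop single venous-like barcodes were chosen after seeing the data. Depth limits Sele and endothelial Ackr1, for which no ratio was read, and Selp, whose ratio rests on 5 and 19 UMIs and whose interval reached below 1 without Scrublet doublets (2.56, 0.872 to 9.09).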
